A study of Mus musculus with 9 samples.

Results

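Neat1 RNA is a nuclear RNA that builds paraspeckles, bodies that lie beside the nuclear speckles where splicing factors are stored. The genes described here are 42 that encode core spliceosome and SR splicing factors, chosen by name from the 43629 genes of the count table: 10 SR proteins, 4 SR-related proteins, 8 proteins of the U2 snRNP and U2AF, 7 Sm ring proteins, 3 U1 snRNP proteins, 8 proteins of the U4/U6.U5 tri-snRNP and its recycling, and 2 proteins of the Prp19 complex and spliceosome activation. The question is how their RNA levels compare between frontal cortex with and without Neat1. RNA-seq libraries were made from total RNA depleted of ribosomal RNA, from the frontal cortex of C57BL/6 females. Of these, 5 were wild type (WT) and 4 Neat1-/-. The paper describes frontal gray matter and the white matter beneath it as separate dissections, and names frontal cortex for the libraries. The WT mice (replicates 1 to 5) were 2, 2, 3, 4 and 4 months of age, and the Neat1-/- mice (replicates 1, 3, 4 and 5, labelled Neat1-KO) 3, 3, 4 and 2 months. In Neat1-/- mice lacZ and polyadenylation signals sit at the Neat1 transcriptional start site in every cell, so the allele is not specific to a cell type. The labels do not say whether WT mice were littermates.

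Splicing removes introns through the spliceosome, which is built anew on each intron from the U1, U2, U4, U5 and U6 small nuclear ribonucleoproteins (snRNPs). SR proteins, named for their arginine- and serine-rich tails, bind exons and recruit U1 and U2AF to the splice sites, and many of them tune their own RNA by alternative splicing of exons that lead to decay. All of these proteins are used by every nucleated cell, and neurons in addition rely on several of them for brain-specific exons.

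Levels are given as CPM, the counts on a gene per 1e+06 counts of the library, after TMM scaling and with the SD between mice. The libraries held between 51276067 and 64648856 counts, and the 42 genes together took between 0.381% and 0.388% of the counts of a library. All 42 passed the filter on low counts, as did 19753 genes in total. The lowest count of a member in any library was 90, for Snrpf. The level of Neat1 (chromosome 19 from 5824708 to 5845478, minus strand, GRCm38) was 81.4 ± 23.0 CPM (SD, n = 5) with the WT allele and 8.14 ± 1.18 CPM (SD, n = 4) without it, and no Neat1-/- mouse reached the lowest WT mouse (60.8 CPM). The log2 fold change was -3.33 (SE 0.189) with an adjusted p of 1.27e-06, from the quasi-likelihood test of edgeR with Benjamini-Hochberg adjustment. WT replicates 3 and 4 stood apart in the share of counts on TEC and sense intronic gene models, 0.234% and 0.212%, against 0.113% to 0.136% in the other 7 libraries. The summed level of 5 choroid plexus markers was 115 CPM in WT replicate 3 and 15.6 to 27.4 CPM in the others. That of 6 meningeal fibroblast markers ran from 33.0 CPM in WT replicate 4 to 240 CPM in WT replicate 2. Across Neat1-/- mice it was 82.6 to 117 CPM. The markers of cortical excitatory neurons were present in each library, with a summed level of 2224 to 2467 CPM.

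Promoters of splicing factor genes are described first, since the choice of members by name did not use their sequence. The RefSeq table (GRCm38.p6) held a promoter, from 250 bases before to 50 after the start, for 34 of the 42 genes. For each of these a single promoter was kept, the one nearest to its annotated start. The comparison used every promoter of the table, so the sets were not built alike. These promoters held a median of 25 CpG dinucleotides, and the lowest held 13, against a median of 7 over all 32851 promoters of the table. Their median GC content was 59.7%, against 52.7% over all promoters. Among the 12454 promoters with at least 13 CpG, the medians were 24 CpG and 64.3% GC, so the members had a like number of CpG and a lower GC content than these. The letters CCGGAAGT, searched on both strands, were found in 7 of 34 (20.6%), in 3.89% of all promoters and in 8.28% of those with at least 13 CpG. The letters CCAAT, on either strand, were found in 15 of 34 (44.1%), against 37.4% of all promoters and 35.3% of those with at least 13 CpG. TATAAA was found in 4 of 34 (11.8%), below the 13.6% of all promoters and above the 4.96% of those with at least 13 CpG. No searched word contains another. These matches describe letters and say nothing of which factors bind there. Of the promoters below, Srsf5 and Srsf4 belong to the SR protein genes with the highest and the lowest level per length and hold CCGGAAGT, and Prpf19 belongs to the member with the smallest p between genotypes and holds CCAAT. Each is 300 bases, written 5′ to 3′ along the gene's strand, with capitals marking CCGGAAGT, its reverse complement ACTTCCGG, or CCAAT.
Srsf5, chr12:80945249-80945548, plus strand: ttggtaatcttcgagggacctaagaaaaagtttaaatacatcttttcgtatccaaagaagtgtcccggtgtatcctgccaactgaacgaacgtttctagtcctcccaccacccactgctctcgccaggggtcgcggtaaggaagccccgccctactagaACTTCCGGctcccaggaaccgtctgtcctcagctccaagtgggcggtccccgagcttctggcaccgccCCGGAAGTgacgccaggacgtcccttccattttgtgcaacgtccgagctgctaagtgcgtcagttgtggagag
Srsf4, chr4:131873387-131873686, plus strand: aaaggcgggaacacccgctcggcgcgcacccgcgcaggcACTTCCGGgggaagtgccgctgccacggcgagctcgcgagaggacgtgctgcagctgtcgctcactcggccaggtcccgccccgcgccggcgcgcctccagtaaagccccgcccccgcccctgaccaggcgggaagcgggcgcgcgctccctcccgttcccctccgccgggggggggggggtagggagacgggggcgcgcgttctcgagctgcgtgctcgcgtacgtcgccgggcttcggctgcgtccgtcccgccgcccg
Prpf19, chr19:10894981-10895280, plus strand: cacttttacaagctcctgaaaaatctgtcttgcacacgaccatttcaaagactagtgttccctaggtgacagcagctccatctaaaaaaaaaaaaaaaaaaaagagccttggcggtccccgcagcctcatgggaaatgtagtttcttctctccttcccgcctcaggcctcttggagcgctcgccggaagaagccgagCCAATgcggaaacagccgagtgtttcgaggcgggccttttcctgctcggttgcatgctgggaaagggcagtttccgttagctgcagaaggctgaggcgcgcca

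The Srsf5 window holds 2 copies of the word, one on each strand, and a GC content of 56%. The Srsf4 window holds 1 copy, 49 CpG and a GC content of 77.7%, and the Prpf19 window holds 16 CpG and none of that word.

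Splicing factor genes differed widely in level within 1 tissue. Per kilobase of merged exons and over all 9 libraries, Srsf5 was the highest at 63.3 ± 2.71 CPM per kb (SD, n = 9) and Snrpc the lowest at 1.46 ± 0.0944 CPM per kb, a ratio of 43.4. With the longest annotated transcript as the length, Sf3b1 took the top place with 77.6 CPM per kb, Snrpc stayed the lowest, and the ratio was 49.7. Both lengths can exceed that of the coding transcripts. The longest coding transcript was 1013 bases for Snrpc and 1568 for Srsf5, against 6521 and 3988 bases of merged exons. Levels per coding transcript were not computed, so these ranks hold only for the lengths used. The 7 genes chosen for the Sm ring spanned 12.7-fold from Snrpb to Snrpf. Snrpn was not among the chosen genes and is on the list of other spliceosome proteins described below. Its level was 153 ± 4.55 CPM per kb of merged exons (SD, n = 9), against 24.6 CPM per kb for Snrpb. Snrpn thus lay above Srsf5 as well, so the highest place and the span hold only for the genes as chosen.

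**Figure D1:**
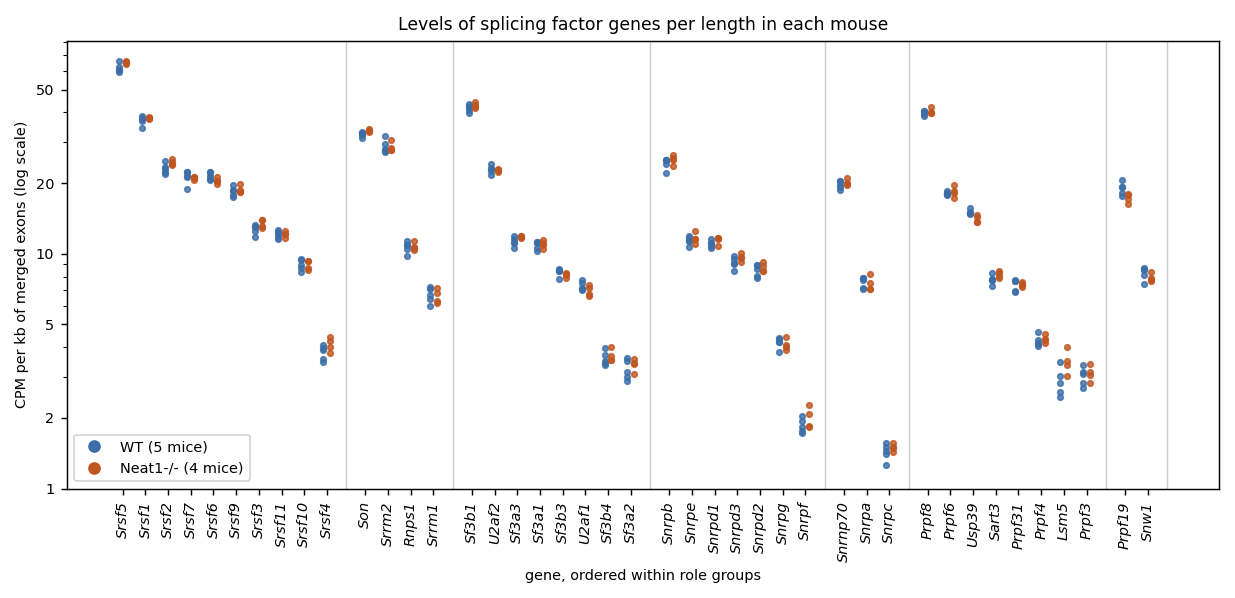
Level of each of the 42 genes in CPM per kilobase of merged exons (log scale, vertical axis) in each WT mouse (blue, 5) and each Neat1-/- mouse (orange, 4), with genes ordered from high to low within their role groups, separated by grey lines in the order SR, SR-related, U2 and U2AF, Sm ring, U1, tri-snRNP and recycling, Prp19 complex. The spread between genes, from 63.3 for Srsf5 to 1.46 for Snrpc, is far wider than the spread between mice of 1 gene.

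Among the 10 SR proteins, Srsf5 was followed by Srsf1 at 37.4 ± 1.32 CPM per kb, the prototype of the family that binds exonic enhancers. The ranges of these 2 genes over the 9 libraries did not overlap each other or the next gene. Srsf2 (23.7 ± 1.15), Srsf7 (21.2 ± 1.04) and Srsf6 (21.0 ± 0.826 CPM per kb) came next, and each overlapped its neighbour in this order. Srsf9, the closest paralog of Srsf1, had 18.6 ± 0.740 CPM per kb. Srsf3 (13.1 ± 0.659) and Srsf11 (12.1 ± 0.393 CPM per kb) overlapped, and the range of Srsf3 lay below that of its paralog Srsf7. Srsf10, which represses splicing when it loses its phosphates, had 8.98 ± 0.422 CPM per kb. Srsf4 was the lowest at 3.94 ± 0.313 CPM per kb, so Srsf4, Srsf5 and Srsf6, paralogs with a pair of RNA recognition motifs each, stood at the bottom, the top and the middle of the family.

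Son and Srrm2, which together form the core of nuclear speckles, were close in level at 32.8 ± 0.820 and 28.6 ± 1.58 CPM per kb, with overlapping ranges. Rnps1, a peripheral protein of the exon junction complex, and Srrm1, a splicing coactivator, lay lower at 10.7 ± 0.498 and 6.65 ± 0.454 CPM per kb. In the U2 group, Sf3b1, which holds the branch site, had the highest level at 42.3 ± 1.33 CPM per kb. U2af2, the large U2AF subunit that reads the polypyrimidine tract, had 22.8 ± 0.677 CPM per kb, and U2af1, the small subunit that reads the AG at the intron's end, had 7.14 ± 0.351 CPM per kb. Sf3a2 (3.28 ± 0.261) and Sf3b4 (3.63 ± 0.227 CPM per kb) had the lowest levels in this group, with ranges that overlapped. Snrnp70 led the U1 proteins at 19.9 ± 0.699 CPM per kb, ahead of Snrpa at 7.49 ± 0.433 and Snrpc. Prpf8, the scaffold of the catalytic core, led the tri-snRNP group at 40.1 ± 0.916 CPM per kb, and Prpf3 (3.06 ± 0.242) and Lsm5 (3.13 ± 0.494 CPM per kb) ended it with overlapping ranges.

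The order within a role group depends on the length used, and the orders above hold for merged exons. With the longest transcript, Srsf11 moved from the eighth to the fourth place of the SR proteins (33.0 CPM per kb, above Srsf7 at 31.3, Srsf6 at 28.7, Srsf3 at 25.8 and Srsf9 at 22.1), Sf3b3 (19.9) and U2af1 (17.7) came ahead of Sf3a3 (17.6 CPM per kb), and Snrpd1 (26.8) ahead of Snrpe (23.6 CPM per kb). Snrpd2 (15.9) also came ahead of Snrpd3 (10.6 CPM per kb), and Son (56.0) and Srrm2 (41.5 CPM per kb) were less close. In the tri-snRNP group, Prpf31 (12.8) then lay above Sart3 (10.1 CPM per kb), and Prpf4 (4.67) and Lsm5 (3.28 CPM per kb) were the lowest, with Prpf3 at 5.90 CPM per kb. The highest gene of each of the 7 groups was the same with both lengths, and so was the lowest, except in the tri-snRNP group.

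Parts of these levels are uncertain, since neither the labels nor the paper state whether counting used the strand of the reads. Exons of another gene on the opposite strand covered 65.85% of the exon length of Snrpf (Ccdc38, and a lincRNA over 19.51%), 44.25% of Snw1 (Slirp) and 43.02% of Srsf4 (Gm12992). Smaller overlaps fell on Prpf31 (18.09%), Sf3a2 (16.14%), Srsf2 (15.55% by Mettl23 and 9.74% by Mfsd11), Snrpa (11.03%) and Snrpd3 (6.74%), and overlaps under 5% on Sf3b4, Sf3b3, Srsf1, Son and Srrm2. Pseudogene models with at least 95% identity over at least 100 bases exist for 17 of the 42 genes, with 4 for Srsf3, 3 each for U2af1, Snrpg and Snrpc, and 2 for Lsm5. Reads could therefore align to several copies, and neither the labels nor the paper state how such reads were counted.

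Between genotypes, the differences in these splicing factor genes were small. At an adjusted p of 0.05 over all tested genes, 0 of 42 differed by edgeR, DESeq2 or limma, where edgeR called 0.0709% of all tested genes (0.0456% higher and 0.0253% lower in Neat1-/- mice), and the smallest adjusted p of a member by edgeR was 0.534, for Prpf19 (0.162 by DESeq2 and 0.272 by limma). At an unadjusted p of 0.05 from edgeR, 2 genes were higher in Neat1-/- mice (Srsf5 and Lsm5) and 2 were lower (Prpf19 and Usp39). The same counts were 1 and 2 by DESeq2 and 5 and 3 by limma, and with 1 library left out they ranged from 0 to 3 higher and from 1 to 5 lower by edgeR. Of all tested genes, 7.80% were under that p by DESeq2, 9.90% by limma, and 5.16% to 14.7% by edgeR with 1 library left out. The 4 genes of the edgeR fit with all libraries are 9.52% of the members, near the 8.30% of all tested genes (4.27% higher and 4.03% lower). Levels in Neat1-/- and WT mice did not overlap for 2 of 42 genes (4.76%), Son higher and Usp39 lower, against 2.68% of all tested genes (1.67% higher and 1.01% lower). The median log2 fold change over the 42 genes was 0.029 with 30 positive and 12 negative, against a median of 0.000 over all tested genes and 0.012 over the 12603 protein-coding genes within the members' range of level, of which 7195 were positive. Leaving out WT replicate 3 gave a median of 0.015, leaving out WT replicate 4 one of 0.017, and leaving out both one of 0.005. Leaving out Neat1-/- replicate 4 gave 0.018. In whole tissue, fewer cells of a type and less RNA per cell cannot be told apart.

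**Figure D2:**
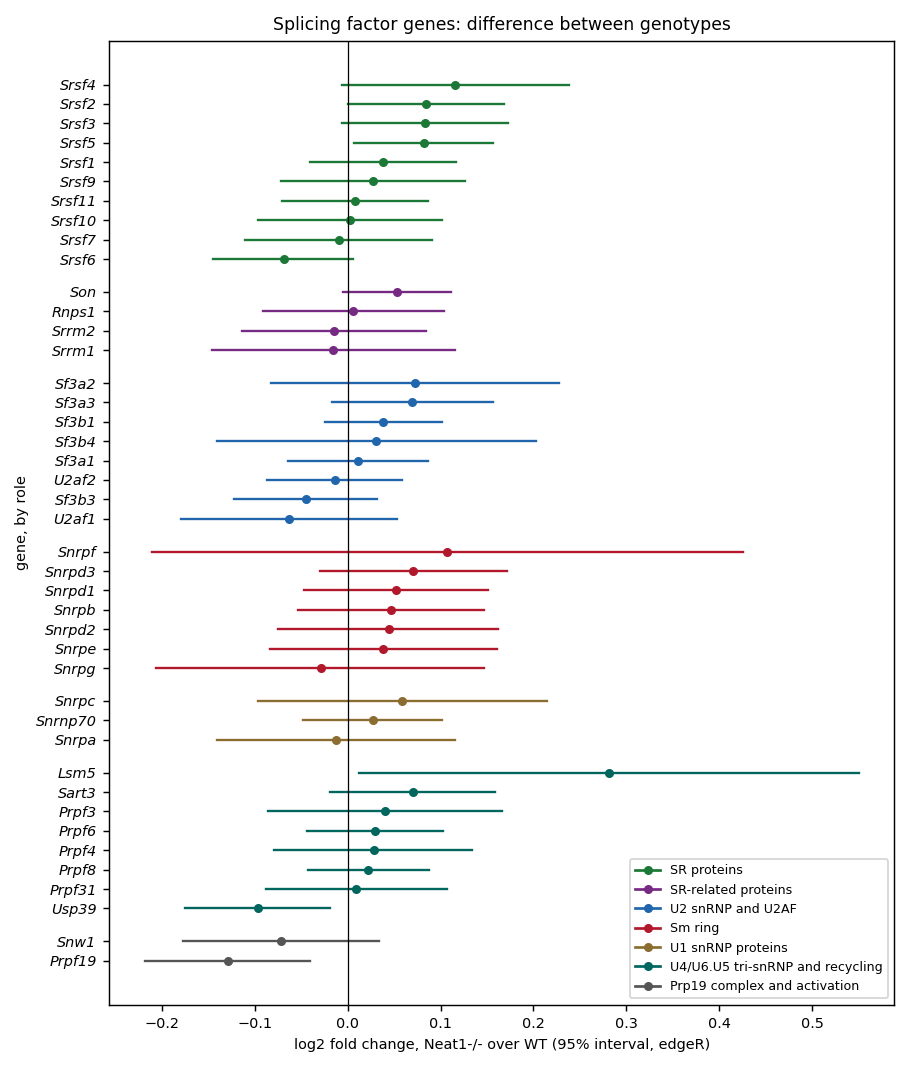
Log2 fold change of Neat1-/- over WT (horizontal axis) for each of the 42 genes, with its 95% interval from edgeR, sorted within role groups shown by colour. The intervals of 38 genes span 0, and those of Srsf5, Lsm5, Usp39 and Prpf19 do not, before adjustment for the number of genes tested.

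The data limit how large a difference could have gone unseen. The 95% interval of the log2 fold change lay within 1.2-fold in both directions for 40 of 42 genes, and for Lsm5 and Snrpf, the 2 members with the lowest counts, within 1.5-fold. For 17 of 42 it lay within 1.1-fold. Of all tested genes, 50.5% had an interval within 1.2-fold and 23.1% within 1.1-fold. The members were measured more precisely than the typical gene. The median SE of the log2 fold change was 0.0457 (range 0.0268 for Son to 0.147 for Snrpf), against 0.0810 over all tested genes and 0.0530 over protein-coding genes of like level. The median coefficient of variation among WT mice was 5.01%, against 8.80% over all tested genes.

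Prpf19 (chromosome 19 from 10895231 to 10909559, plus strand) had the smallest p of the 42 genes. It encodes the ubiquitin ligase that gives the Prp19 complex its name, which joins the spliceosome as it becomes active. It was also the only member on the chromosome of Neat1, 5.05 Mb away. Its level was 150, 140, 128, 132 and 140 CPM in WT replicates 1 to 5 and 125, 131, 119 and 130 CPM in Neat1-/- replicates 1, 3, 4 and 5. The groups overlapped, since WT replicate 3 lay below the Neat1-/- replicates 3 and 5. The WT mean was 138 ± 8.68 CPM (SD, n = 5) and the Neat1-/- mean 126.1 ± 5.14 CPM (SD, n = 4). The log2 fold change was -0.13 (SE 0.0411, unadjusted p = 0.00798 and adjusted p = 0.534 from edgeR), a difference of -8.56%, and the two-sided exact permutation test gave p = 0.0635. Snw1, which also joins at activation, had 53.4, 56.7, 49.1, 56.1 and 57.3 CPM across WT mice and 50.2, 50.9, 51.7 and 54.9 CPM across Neat1-/- mice. WT replicate 3 was the lowest of all 9 libraries for Snw1, and the other WT mice lay above 3 of the 4 Neat1-/- mice. The log2 fold change of Snw1 was -0.07 (SE 0.0488, unadjusted p = 0.166 and adjusted p = 0.688 from edgeR), and -0.11 without WT replicate 3 or Neat1-/- replicate 5.

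Usp39, a tri-snRNP protein related to ubiquitin proteases, differed without overlap. Its level was 36.9, 38.1, 36.5, 36.5 and 36.0 CPM across WT mice and 35.1, 33.4, 33.4 and 35.8 CPM across Neat1-/- mice. The gap was small: the lowest WT mouse and the highest Neat1-/- mouse were 36.0 and 35.8 CPM. The log2 fold change was -0.10 (SE 0.0361, unadjusted p = 0.0187 and adjusted p = 0.562 from edgeR), a difference of -6.52%, and the exact permutation test gave p = 0.00794, the smallest that 5 mice against 4 allow. Lsm5, a subunit of the Lsm ring that caps the end of U6 RNA, had the largest fold change and the fewest reads of these genes after Snrpf. Its level was 2.74, 2.39, 2.22, 1.94 and 2.05 CPM across WT mice and 2.77, 2.38, 2.67 and 3.17 CPM across Neat1-/- mice. WT replicates 1 and 2 lay within the Neat1-/- range, and the other 3 WT mice lay below it. The log2 fold change was 0.28 (95% interval 0.01 to 0.55, unadjusted p = 0.0421 and adjusted p = 0.594 from edgeR). Sart3, which rejoins U4 and U6 after each round, had 41.3, 43.9, 46.9, 44.0 and 43.7 CPM across WT mice and 45.4, 44.6, 47.9 and 46.7 CPM across Neat1-/- mice. Its log2 fold change was 0.07 (SE 0.0412, unadjusted p = 0.114 and adjusted p = 0.654 from edgeR), and WT replicate 3 lay among the Neat1-/- mice. It was 0.041 without WT replicate 1.

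The other tri-snRNP genes, Prpf3, Prpf4, Prpf6, Prpf8 and Prpf31, had log2 fold changes between 0.01 and 0.04, and none passed an unadjusted p of 0.05. Prpf8 had 297 ± 5.94 CPM across WT mice and 302 ± 7.83 CPM across Neat1-/- mice, with a 95% interval of its log2 fold change from -0.04 to 0.09.

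Of the SR proteins, 8 had a positive and 2 a negative log2 fold change, 1 passed an unadjusted p of 0.05, and the median was 0.033. Srsf5 had 250, 241, 236, 241 and 263 CPM across WT mice and 257, 264, 262 and 259 CPM across Neat1-/- mice. WT replicate 5 lay among the Neat1-/- mice and the other 4 WT mice below all of them. The means were 246 ± 10.5 and 260 ± 3.43 CPM, and the log2 fold change was 0.08 (95% interval 0.01 to 0.16, unadjusted p = 0.0335 and adjusted p = 0.581 from edgeR, exact permutation p = 0.0556). Srsf2, a nuclear speckle protein that acts on exon inclusion, had 69.5, 67.9, 64.9, 66.0 and 73.3 CPM across WT mice and 72.8, 70.7, 75.2 and 71.2 CPM across Neat1-/- mice. Srsf3, the smallest SR protein, had 98.9, 105, 93.0, 103 and 103 CPM across WT mice and 110, 102, 104 and 110 CPM across Neat1-/- mice. Both were lowest in WT replicate 3, both overlapped between groups, and both had a log2 fold change of 0.08 (adjusted p = 0.602 for Srsf2 and 0.623 for Srsf3, edgeR). Without WT replicate 3 that of Srsf3 was 0.052.

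Srsf4 had 12.3, 12.7, 14.6, 13.8 and 14.2 CPM across WT mice and 15.1, 14.3, 15.8 and 13.4 CPM across Neat1-/- mice, and here WT replicate 3 was the highest WT mouse. Its log2 fold change was 0.12 (SE 0.0564, unadjusted p = 0.0609 and adjusted p = 0.616 from edgeR). Srsf6 was on the other side of 0, with 103, 107, 99.8, 107 and 99.5 CPM across WT mice and 98.0, 95.6, 98.4 and 102 CPM across Neat1-/- mice. Its log2 fold change was -0.07 (SE 0.0348, unadjusted p = 0.0688 and adjusted p = 0.630 from edgeR), and only Neat1-/- replicate 5 entered the WT range. Srsf6 thus had the opposite sign to its paralogs Srsf4 and Srsf5, with none past the adjusted threshold, and the difference between paralogs was not tested. Srsf1, Srsf7, Srsf9, Srsf10 and Srsf11 had log2 fold changes between -0.01 and 0.04.

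Son, a scaffold of nuclear speckles, was the 1 member higher in Neat1-/- mice without overlap. Its level was 491, 485, 479, 465 and 487 CPM across WT mice and 494, 497, 507 and 500 CPM across Neat1-/- mice. The means, 481 ± 9.89 and 499 ± 5.54 CPM, differed by 3.72% (log2 fold change 0.05, SE 0.0268, unadjusted p = 0.0713 and adjusted p = 0.630 from edgeR), and the exact permutation test gave p = 0.0159. Without WT replicate 4 the log2 fold change of Son was 0.034. Srrm2, its partner in speckles, had 369 ± 24.4 CPM across WT mice and 366 ± 17.1 CPM across Neat1-/- mice, which is a log2 fold change of -0.01 with a 95% interval from -0.11 to 0.08. Rnps1 and Srrm1 had log2 fold changes of 0.01 and -0.02.

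**Figure D3:**
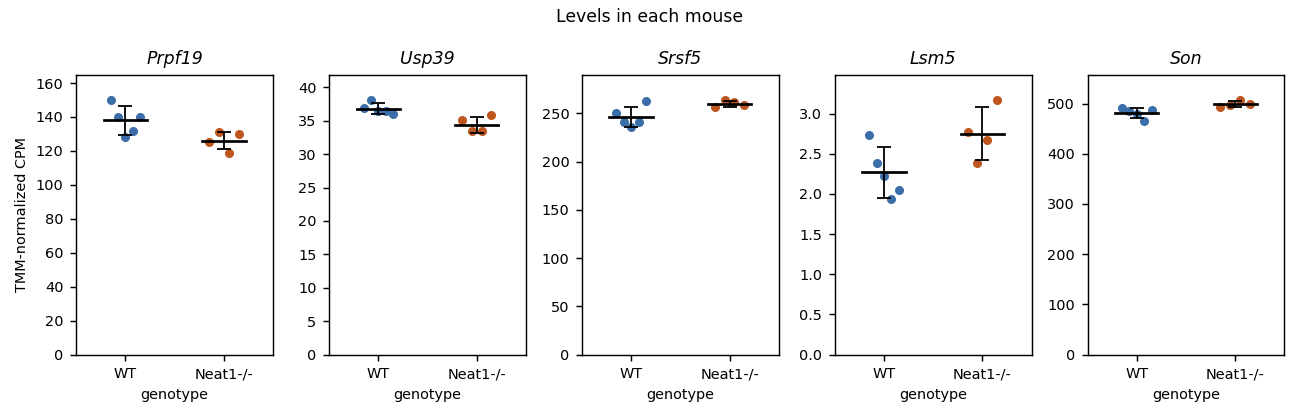
TMM-normalized CPM (vertical axes, from 0) of Prpf19, Usp39, Srsf5, Lsm5 and Son in each WT (blue, 5) and Neat1-/- mouse (orange, 4), with the mean and SD as bars. The groups overlap for Prpf19, Srsf5 and Lsm5 and do not overlap for Usp39 (lower in Neat1-/-) and Son (higher).

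None of the 8 U2 and U2AF genes passed an unadjusted p of 0.05. Sf3a3, which helps U2 bind the branch site, had 32.2, 33.0, 29.5, 30.8 and 31.4 CPM across WT mice and 33.2, 32.6, 32.7 and 33.2 CPM across Neat1-/- mice, so that only WT replicate 2 entered the Neat1-/- range (log2 fold change 0.07, SE 0.0400, adjusted p = 0.650 from edgeR, and 0.044 without WT replicate 3). Sf3b1 had 481, 493, 464, 454 and 484 CPM across WT mice and 485, 490, 474 and 503 CPM across Neat1-/- mice. Its log2 fold change was 0.04 (SE 0.0288, adjusted p = 0.723 from edgeR), or 0.025 and 0.022 without WT replicates 3 and 4 in turn, and the groups overlapped. Sf3b3 had 94.2, 93.3, 85.2, 91.9 and 92.3 CPM across WT mice and 86.1, 88.9, 89.1 and 90.2 CPM across Neat1-/- mice, and WT replicate 3 was the lowest library of all while the other WT mice lay above each Neat1-/- mouse. With all libraries its log2 fold change was -0.05 (unadjusted p = 0.228 and adjusted p = 0.737 from edgeR), and without WT replicate 3 it was -0.074 (unadjusted p = 0.0243 and adjusted p = 0.617). U2af1, with a log2 fold change of -0.06, had an interval of -0.18 to 0.05, and U2af2, Sf3a1, Sf3a2 and Sf3b4 had log2 fold changes between -0.01 and 0.07.

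The Sm ring, which every snRNP but U6 carries, had 6 positive log2 fold changes and 1 negative, a median of 0.047, and 0 genes past an unadjusted p of 0.05. Snrpd3 had 32.7, 33.7, 31.5, 29.0 and 31.2 CPM across WT mice and 32.9, 31.7, 34.8 and 33.4 CPM across Neat1-/- mice (log2 fold change 0.07, SE 0.0466, adjusted p = 0.680 from edgeR), and the log2 fold change was 0.020 without Neat1-/- replicate 4 and 0.037 without WT replicate 4. The other 6 ranged from -0.03 for Snrpg to 0.11 for Snrpf, whose 95% interval ran from -0.21 to 0.42. The U1 proteins Snrpc, Snrnp70 and Snrpa had log2 fold changes of 0.06, 0.03 and -0.01.

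Members that the study had listed as RNA processing genes from these same samples were no independent group. The study, which used limma, gives each of these 7 (Prpf19, Snw1, Usp39, Sf3b3, Lsm5, Sart3 and Srsf4) a p under 0.05. By edgeR here, 3 of the 7 passed an unadjusted p of 0.05 (42.9%, against 8.30% of all tested genes). Of the other 35 genes, 1 did by edgeR (2.86%), which was Srsf5. By limma here, Prpf19, Usp39, Lsm5 and Srsf4 of the 7 passed, with 9.90% of all tested genes.

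The members also differed by library. The median deviation of the 42 genes from their mean over 9 libraries, in log2, was lowest in WT replicate 3 (-0.058) and highest in Neat1-/- replicate 4 (0.036), and between -0.019 and 0.015 in the other 7. In WT replicate 3 the SR protein genes had a median of -0.099 and the Sm ring genes one of -0.092, each the lowest of the 9 libraries. The SR protein medians lay between -0.008 and 0.019 in the other 4 WT mice and between 0.011 and 0.036 in Neat1-/- mice, so those ranges overlapped. WT replicate 3 was also the library with the high choroid plexus and intronic shares above, and the part of these in the values of the splicing factor genes was not tested. Without WT replicate 3, the counts at an unadjusted p of 0.05 were 2 higher and 5 lower, and without WT replicates 3 and 4 they were 1 higher (Sart3) and 4 lower (Prpf19, Usp39, Sf3b3 and Snw1). In these fits, 7.38% and 7.29% of all tested genes were under that p, in either direction.

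**Figure D4:**
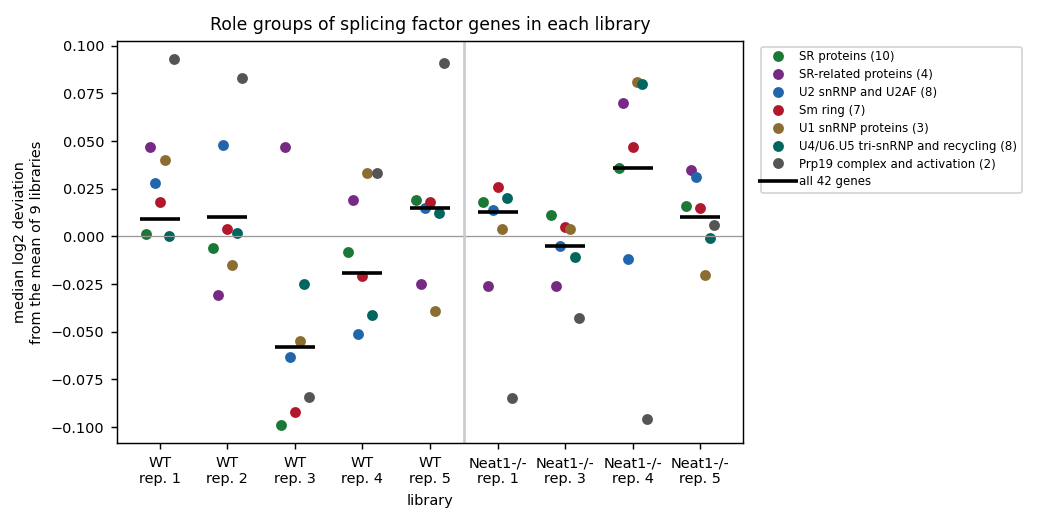
Median log2 deviation of each role group from its mean over 9 libraries (vertical axis), for each library (horizontal axis, WT left and Neat1-/- right of the grey line), with black bars for all 42 genes. WT replicate 3 has the lowest black bar, at -0.058, and the median of the 2 Prp19 complex genes lies below 0 in WT replicate 3 and in 3 of 4 Neat1-/- mice.

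Some markers of oligodendrocytes were lower in Neat1-/- mice before adjustment for the number of genes tested. The summed level of 8 mature markers was 2153 to 3356 CPM across WT mice and 1841 to 2815 CPM across Neat1-/- mice. At an unadjusted p of 0.05, 4 of these 8 were lower. The summed level of 5 progenitor markers was 182 to 209 CPM across WT mice and 171 to 183 CPM across Neat1-/- mice, with 3 of 5 lower. Both pairs of ranges overlapped. Over all tested genes, 4.03% were lower and 4.27% higher at that threshold. None of the markers was at 0 in all libraries. Their part in the values of the splicing factor genes was not tested. Of the 6 microglia markers, 2 were higher, with summed levels of 267 to 308 CPM across WT mice and 287 to 307 CPM across Neat1-/- mice. Of the 10 excitatory neuron markers, 2 were higher, with summed levels of 2224 to 2455 CPM across WT mice and 2335 to 2467 CPM across Neat1-/- mice.

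Of the other genes of the splicing pathway, 134 on 6 lists, 0 passed the adjusted threshold in edgeR. At an unadjusted p of 0.05, 11 were higher (8.21%) and 0 lower, where the members had 2 higher and 2 lower. Over all tested genes, 4.27% were higher and 4.03% lower. The median log2 fold change of the 134 genes was 0.025. Of the 12603 protein-coding genes within the members' range of level, 724 were higher and 370 lower, and 7195 had a positive log2 fold change. Of 66 other spliceosome proteins, 5 were higher, and 0 without WT replicate 3, Neat1-/- replicate 1 or Neat1-/- replicate 4. Lsm8, which completes the ring that holds Lsm5, had 18.6 ± 1.49 CPM across WT mice and 20.6 ± 0.323 CPM across Neat1-/- mice without overlap (log2 fold change 0.15, adjusted p = 0.580 from edgeR). Ddx42, a helicase that meets the U2 snRNP, had 124 ± 3.35 and 130 ± 1.89 CPM, also without overlap. Of 10 kinases and importins of SR proteins, 2 were higher, Clk1 (106 to 127 CPM across WT mice and 124 to 128 CPM across Neat1-/- mice) and Dyrk1a (133 ± 2.52 against 139 ± 3.94 CPM), both with overlap, and 9 of 10 log2 fold changes were positive. This count was 0 without WT replicate 2 or 4 or Neat1-/- replicate 1, 3 or 5, and 1 without WT replicate 1 or 3. It was also 0 with library size alone, with a filter of 1 CPM and with the replicate block. Dyrk1a is among the RNA processing genes that the study listed from these same samples, so its p is not independent of that list.

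Of 24 hnRNP genes, whose proteins coat nascent RNA and often oppose SR proteins, 3 were higher (12.5%, against 4.27% of all tested genes). Of the 24, 20 had a positive log2 fold change. The 3 became 1 without WT replicate 4 or Neat1-/- replicate 4 and 5 without WT replicate 5. Hnrnpa0 had 79.7 to 90.6 CPM across WT mice and 91.4 to 93.3 CPM across Neat1-/- mice, without overlap, and Hnrnpu had 180 ± 5.15 and 191 ± 7.73 CPM with overlap (adjusted p = 0.543 for both, edgeR). Hnrnpa0 and Hnrnpu are also among the RNA processing genes that the study listed from these same samples. Of 16 other SR-like regulators, 1 was higher: Rsrp1, an arginine- and serine-rich protein gene, with 255 ± 7.82 CPM across WT mice and 276 ± 5.89 CPM across Neat1-/- mice, no overlap, and the smallest p of the 134 (log2 fold change 0.11, unadjusted p = 0.00358 and adjusted p = 0.430 from edgeR). Scaf11 had the second smallest p on that list, with 85.8 ± 1.29 and 89.7 ± 3.50 CPM (adjusted p = 0.616 from edgeR). None of the 9 exon junction complex genes passed an unadjusted p of 0.05, led by Magoh (12.3 ± 1.26 against 13.4 ± 0.780 CPM) and Rbm8a (36.9 ± 2.03 against 38.8 ± 1.90 CPM). None of the 9 proteins of the minor spliceosome, which removes a small class of introns, did so either. The 2 with the smallest p were Zcrb1 (35.2 ± 1.37 and 37.7 ± 3.10 CPM) and Zrsr1 (43.1 ± 1.40 and 45.1 ± 1.77 CPM), both positive. Of the list, 4 log2 fold changes were positive and 5 negative, from -0.15 to 0.10, with a median of -0.068.

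The authors' own normalized log2 table, which holds 41 of the 42 genes (Snrpf was not among its 13456), gave a median difference between genotypes of 0.011 over the members, from -0.17 to 0.28, against 0.003 over all its genes. The sign was that of the counts for 33 of 41 members.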

How the data were processed

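The data are RNA-seq of ribosome-depleted frontal cortex RNA from 5 WT and 4 Neat1-/- mice. Deposited by the authors were raw counts for each Ensembl gene, taken here without change, and a table of normalized log2 expression values. The submitters' processing notes name STAR 2.5.0, HTSeq 0.8.0, limma and mm10. The supplementary methods name other aligner and counter versions and a model with age as covariate. The log2 values deposited by the authors served only for a difference of group means. Of the 43629 IDs, 42548 had a name in GENCODE vM21 (GRCm38). The filter was filterByExpr with genotype as the group, and libraries were scaled by TMM. The quasi-likelihood test of edgeR 4.0.16 in R 4.3.3 took age (linear, months) and genotype as terms, and p-values were adjusted by Benjamini-Hochberg over 19753 genes with a threshold of 0.05. The common biological coefficient of variation was 0.0922, and intervals are 95% from this fit. The exact permutation test of a gene's CPM was two-sided, over each way to place 4 of 9 libraries, and cannot go below 0.00794. CPM per kilobase used merged exons, and promoters came from RefSeq's table. Summaries and figures used Python 3.11.15, pandas 2.3.3, NumPy 2.4.6 and Matplotlib 3.10.9. Alternatives were DESeq2 1.42.0, limma 3.58.1, other scaling, filters and age terms, a replicate block, and libraries left out.

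The 42 genes, the lists and the tests were chosen with earlier results of these data known. Values in every library are given for the 7 members in the study's table of RNA processing genes and the 14 with the smallest p (15 in all), and of each other list up to 2 genes with the smallest p are named. Nothing in the labels says that each library is a separate animal. The paper gives N = 4 for samples from Neat1-/- mice and N = 5 for controls. Each library is called a mouse here on that reading, and p-values measure the spread between these samples. The study's WGCNA, qPCR and ChIRP data were not analysed here.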

Additional observations from a re-analysis of the deposited data

Results flagged for a closer look

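In 3 of 86 groups of a gene's levels in 1 genotype, a single mouse lay far from the others by Dixon's rule, where chance flags about 1 in 20. Sf3b3 was at 85.2 CPM in WT replicate 3 against 91.9 to 94.2 CPM in the other WT mice. Snrpd1 was at 22.2 CPM in Neat1-/- replicate 5 against 23.8 to 24.0 CPM in the other Neat1-/- mice. Prpf8 was at 313 CPM in Neat1-/- replicate 4 against 297 to 299 CPM in the others.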

How the results depend on the processing

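Members at an adjusted p of 0.05 stayed at 0 in all 19 alternatives. Neat1 stayed called in all 19, with a log2 fold change of -3.45 to -3.15. The median log2 fold change of the members, 0.029, ranged from 0.005 (without WT replicates 3 and 4 together) to 0.038 (replicate block). The 15 members with values in every library kept the sign of their log2 fold change in all 19. Prpf19 was under an unadjusted p of 0.05 in 19 of 19, with an adjusted p of 0.162 to 0.893, Usp39 in 16, Srsf5 in 10 and Lsm5 in 7. Members higher at an unadjusted p of 0.05, 2 in the fit reported, came to 1 with DESeq2, 4 with age as 3 classes, 5 with limma, 1 with the replicate block, 1 without WT replicates 3 and 4 together, and 0 to 3 with 1 library left out (0 without WT replicate 2 or 4 or Neat1-/- replicate 1, 4 or 5). Members lower, 2 in that fit, came to 1 with no filter on low counts, 1 with the replicate block, 4 without WT replicates 3 and 4 together, and 1 to 5 with 1 library left out, 5 without WT replicate 3 and 1 without Neat1-/- replicate 3. The causes were not tested. Over all genes, 8.30% were under an unadjusted p of 0.05, 14.7% without WT replicate 5 and 5.16% without Neat1-/- replicate 3. The share was 7.80% with DESeq2, 9.03% with age as 3 classes, 9.90% with limma and 9.80% with the replicate block. It was 7.56% with no filter, 7.38% without WT replicate 3, and 7.29% without WT replicates 3 and 4 together. Genes at an adjusted p of 0.05 numbered 14 with edgeR, 75 with DESeq2, 22 with limma, 76 with no filter, and 8 to 30 with 1 library left out. Of the 66 other spliceosome proteins, 5 were higher in that fit and 0 without WT replicate 3, Neat1-/- replicate 1 or Neat1-/- replicate 4. The ratio of highest to lowest level per length was 43.4, and 49.7 with the longest transcript. Same-numbered samples did not deviate together (correlations of -0.0773 to 0.137), and only replicate 4 correlated best with its own number, so the numbers were not taken to pair the mice. Depth limits Snrpf and Lsm5 most.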
